A study of Mus musculus with 2 samples.

Results

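Accessible chromatin was described at 10 genes of the NF-kappaB system, of the 21887 protein-coding genes that were counted. The genes were chosen by name and by role: the subunit genes Nfkb1, Nfkb2, Rel and Rela, the inhibitor and feedback genes Nfkbia, Nfkbiz and Tnfaip3, and the target cytokine genes Tnf, Il6 and Il12b. NF-kappaB is a family of dimeric transcription factors that are held in the cytoplasm by IkB proteins until signals from Toll-like receptors or cytokine receptors lead to the destruction of IkB. The dimers then enter the nucleus and switch on cytokine genes together with genes for their own inhibitors, so that the response limits itself. In resident liver macrophages, the Kupffer cells, the pathway is known for the response to bacterial products that arrive with portal blood.

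The assay was single-nucleus ATAC-seq in droplets: a transposase cuts open DNA, and the sequenced fragments mark accessible sites. They came from livers of untreated male littermates of 8 to 10 weeks, 1 mouse with the genotype Spta sph/sph, homozygous for a mutant spectrin gene, and 1 with the genotype Spta wt/wt, after cells other than hepatocytes had been enriched with beads against the macrophage protein F4/80. Each genotype had 1 library, and neither labels nor files tie a barcode suffix to a genotype, so values belong to library 2 or library 1 and no genotype was compared. Without replicates no test across samples was possible, and every interval given is a 95% one for counting error alone.

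The libraries differed in ways that bear on every comparison between them. Library 2 held 21656110 fragments and 575 called cells, and library 1 held 11401694 fragments and 637 called cells, of which 562 and 609 passed the filters, and no cell barcode was shared. Of the fragments of a cell, the median share in peaks was 53.7% in library 2 and 72.1% in library 1. Dense local stacks of fragments from single cells, called pile-ups here, were more common in library 2, where they held 12.1% of its fragments, against 0.648% in library 1. The Kupffer-like class had 255 cells in library 2, all in cluster 1, and 332 in library 1, mostly in clusters 2 and 6, and the endothelial-like class had 148 and 127 cells. Summed over the 10 Kupffer markers, Kupffer-like cells had 594 and 987 CPM (fragments scaled to the total of the class, per 1000000) in library 2 and library 1, and endothelial-like cells had 169 and 193 CPM. None of those markers was without fragments in either class, and what such background adds to the genes below was not tested.

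The promoters are shown first, because Nfkb2, Rel, Nfkbia, Tnfaip3 and Il6 hold the NF-kappaB consensus close to their starts. Il12b is shown as a cytokine gene whose fragments lay elsewhere. The RefSeq promoter table of GRCm38.p6 held 11 promoters of 300 bases for 8 of the 10 genes, not Nfkb1 and Nfkbiz. Each runs 5′ to 3′ on the coding strand from 250 bases before the start, and capitals mark a match to the NF-kappaB consensus on either strand. The first Nfkb2 promoter lies at chr19:46304487-46304786 on the plus strand, Rel at chr11:23770920-23771219 on the minus strand, Nfkbia at chr12:55492598-55492897 on the minus strand, the first Tnfaip3 promoter at chr10:19015361-19015660 on the minus strand, Il6 at chr5:30012864-30013163 on the plus strand and Il12b at chr11:44399813-44400112 on the plus strand.
Nfkb2: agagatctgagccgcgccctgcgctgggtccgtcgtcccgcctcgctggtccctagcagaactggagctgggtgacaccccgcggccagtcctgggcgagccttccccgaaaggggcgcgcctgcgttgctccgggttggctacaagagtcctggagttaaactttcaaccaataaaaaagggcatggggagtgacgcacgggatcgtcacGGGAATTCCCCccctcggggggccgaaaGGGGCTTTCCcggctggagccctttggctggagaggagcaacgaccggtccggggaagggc
Rel: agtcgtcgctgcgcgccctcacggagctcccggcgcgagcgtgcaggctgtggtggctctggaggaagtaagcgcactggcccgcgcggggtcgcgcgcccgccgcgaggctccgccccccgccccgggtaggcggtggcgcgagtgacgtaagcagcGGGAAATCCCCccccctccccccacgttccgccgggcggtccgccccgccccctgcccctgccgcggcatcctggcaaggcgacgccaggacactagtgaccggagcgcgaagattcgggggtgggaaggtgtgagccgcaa
Nfkbia: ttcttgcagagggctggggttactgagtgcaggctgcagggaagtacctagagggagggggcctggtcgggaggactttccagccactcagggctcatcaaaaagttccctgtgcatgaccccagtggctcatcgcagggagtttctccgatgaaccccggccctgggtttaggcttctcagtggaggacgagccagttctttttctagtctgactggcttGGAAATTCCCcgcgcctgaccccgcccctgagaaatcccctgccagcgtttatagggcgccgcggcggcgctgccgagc
Tnfaip3: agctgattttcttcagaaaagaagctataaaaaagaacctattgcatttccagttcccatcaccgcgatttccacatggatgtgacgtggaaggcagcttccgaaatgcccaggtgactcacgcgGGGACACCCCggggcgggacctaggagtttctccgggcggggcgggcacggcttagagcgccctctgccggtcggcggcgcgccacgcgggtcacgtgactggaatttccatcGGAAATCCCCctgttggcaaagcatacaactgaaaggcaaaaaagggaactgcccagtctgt
Il6: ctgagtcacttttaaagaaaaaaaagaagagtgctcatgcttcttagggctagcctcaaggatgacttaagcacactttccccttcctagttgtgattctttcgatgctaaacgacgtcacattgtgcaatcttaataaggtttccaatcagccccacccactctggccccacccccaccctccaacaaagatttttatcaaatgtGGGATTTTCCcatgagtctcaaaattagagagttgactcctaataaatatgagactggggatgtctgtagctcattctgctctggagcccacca
Il12b: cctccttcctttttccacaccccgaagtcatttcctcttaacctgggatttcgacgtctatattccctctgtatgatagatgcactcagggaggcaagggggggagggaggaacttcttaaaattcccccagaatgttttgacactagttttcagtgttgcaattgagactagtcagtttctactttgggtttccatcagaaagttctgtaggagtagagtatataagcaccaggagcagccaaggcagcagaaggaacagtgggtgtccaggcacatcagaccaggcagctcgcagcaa

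A match stood in 7 of the 11 promoters and in 5 of the 8 genes, namely Nfkb2, Rel, Nfkbia, Tnfaip3 and Il6. Over the whole table, 8.46% of 32851 promoters and 9.55% of 27025 genes held one. Rela, Tnf, Il12b and the second Tnfaip3 promoter held none, which says only that these letters are not in those windows. Matches on both strands overlapped in the first Nfkb2 promoter and in Rel, where sites that matched on both strands began at positions -39 and -92 from the start and a match on the minus strand began at the next base. The Il6 match began at position -44 and the Nfkbia match at -29. Tnfaip3 also had a site that matched on both strands, at -125, and a match on the minus strand at -12. Fragments over the Il6 promoter numbered 25 and 66 in Kupffer-like cells of library 2 and library 1, against 2 and 1 in endothelial-like cells. The Nfkbia promoter was open in both classes, with 30.3 and 38.9 CPM in Kupffer-like cells and 25.4 and 27.5 CPM in endothelial-like cells. The Rel promoter, for the subunit c-Rel, had 30.1 and 21.1 CPM in Kupffer-like cells and 29.5 and 25 CPM in endothelial-like cells. Over the Il12b promoter there were 1 and 6 fragments in Kupffer-like cells and 0 and 0 in endothelial-like cells, so that this window was near the limit of detection in both classes.

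Fragments were summed per class over each gene and the 2 kb to its left and right. Ratios are log2 values relative to the median gene, and a gene counted as higher or lower past 1.5-fold, a log2 ratio of 0.585, where both sides together held at least 50 fragments. The clusters were built on bins that include these loci, so differences between the classes are descriptions. Of the 10 genes, 3 were higher in Kupffer-like than in endothelial-like cells and 1 was lower in library 2, where 20.4% of all tested genes were higher and 19.5% lower. In library 1, 3 were higher and 0 lower, against 20.9% and 17.6% of all genes. Il12b, Il6 and Tnfaip3 were the higher genes in both libraries. The median ratio of the 10 genes was 0.31 in library 2 and 0.36 in library 1, where the median of all genes is 0 by construction.

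**Figure D1:**
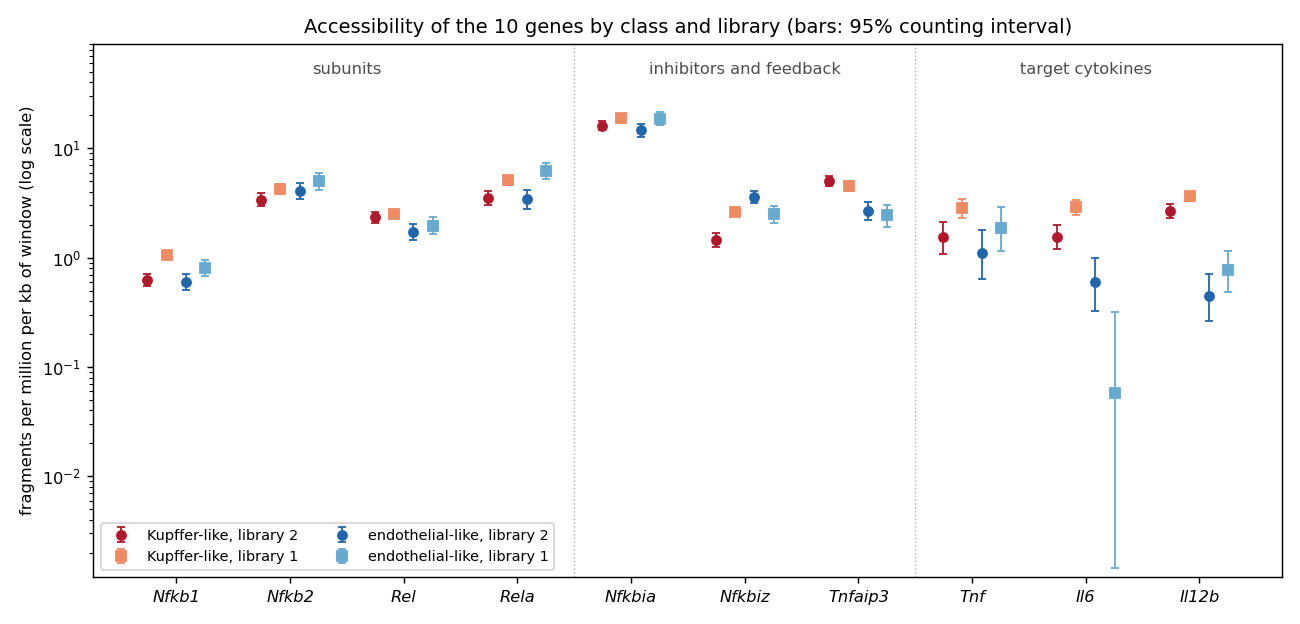
Level in CPM per kb of window on a log axis for each gene, in Kupffer-like cells (red for library 2, orange for library 1) and endothelial-like cells (dark and light blue), with 95% counting intervals as bars. Nfkbia stands highest per kb at 14.7 to 19.0, and Il6 and Il12b show the widest gap between the classes.

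The plot gives levels per kb, each level divided by the length of its window. A long window thus lowers the value where fragments gather in a few places. In Kupffer-like cells of library 2 the fullest 1 kb of Rel and of Nfkbia had 44.3 and 49.4 CPM. Over windows of 38.1 and 7.24 kb, their levels per kb were 2.33 and 16.1. Nfkbia, which encodes IkB-alpha, had the highest level per kb of the 10 genes, with 16.1 and 19.0 CPM per kb in Kupffer-like cells of library 2 and library 1 and 14.7 and 18.6 CPM per kb in endothelial-like cells, above 99.9% of all genes in Kupffer-like cells of library 2. Nfkb1, spread over a window of 111 kb, had the lowest level per kb in Kupffer-like cells, with 0.627 and 1.05 CPM per kb. The level of Il12b lay above 89.7% and 91.2% of all genes in Kupffer-like cells and above 44.9% and 56.3% of them in endothelial-like cells. The level of Il6 lay above 79.7% and 87.4% of genes in Kupffer-like cells and above 52.2% and 14.2% in endothelial-like cells.

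The 4 subunit genes were accessible in both classes at similar levels, and none passed 1.5-fold between the classes in either library. Nfkb1, which encodes p105 and its product p50, had 69.8 and 117 CPM in Kupffer-like cells of library 2 and library 1 and 66.4 and 89.9 CPM in endothelial-like cells. Its ratio was 0.10 (-0.20 to 0.40) in library 2 and 0.38 (0.12 to 0.65) in library 1. Nfkb2, which encodes p100 and p52 of the alternative pathway, was slightly lower in Kupffer-like cells, with 52.3 and 65.9 CPM against 62.7 and 76.8 CPM. Both of its ratios were -0.23, with intervals that hold 0. Rel had 88.8 and 95.8 CPM in Kupffer-like cells and 65.5 and 74.9 CPM in endothelial-like cells. Its ratios of 0.47 (0.18 to 0.76) and 0.35 (0.06 to 0.65) lay above the median gene in both libraries without passing 1.5-fold. Rela, which encodes the transactivating subunit p65, had 51.5 and 75.2 CPM in Kupffer-like cells and 50.3 and 91.8 CPM in endothelial-like cells. Its ratios were 0.06 (-0.28 to 0.42) in library 2 and -0.29 (-0.56 to -0.01) in library 1.

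Among the inhibitor and feedback genes, Tnfaip3 was the one higher in Kupffer-like cells in both libraries. Tnfaip3 encodes A20, an enzyme that edits ubiquitin chains and ends NF-kappaB signalling. It had 93.1 and 83.1 CPM in Kupffer-like cells of library 2 and library 1 and 49.8 and 45.0 CPM in endothelial-like cells, groups whose intervals do not overlap. The ratio was 0.93 (0.62 to 1.26) in library 2 and 0.87 (0.52 to 1.26) in library 1. Nfkbia lay near the median gene, with 116 and 138 CPM in Kupffer-like cells, 106 and 135 CPM in endothelial-like cells and ratios of 0.16 (-0.07 to 0.40) and 0.02 (-0.19 to 0.25). Nfkbiz encodes IkB-zeta, a nuclear cofactor that NF-kappaB needs for a subset of its targets. It had 46.2 and 83.3 CPM in Kupffer-like cells and 113 and 79.3 CPM in endothelial-like cells. It was lower in Kupffer-like cells of library 2, at -1.26 (-1.55 to -0.97), and close to the median gene in library 1, at 0.06 (-0.22 to 0.36). A single endothelial-like cell of library 2 gave 40 of the 244 Nfkbiz fragments of that class, and with pile-ups masked the library 2 ratio was -0.99 (-1.30 to -0.70).

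**Figure D2:**
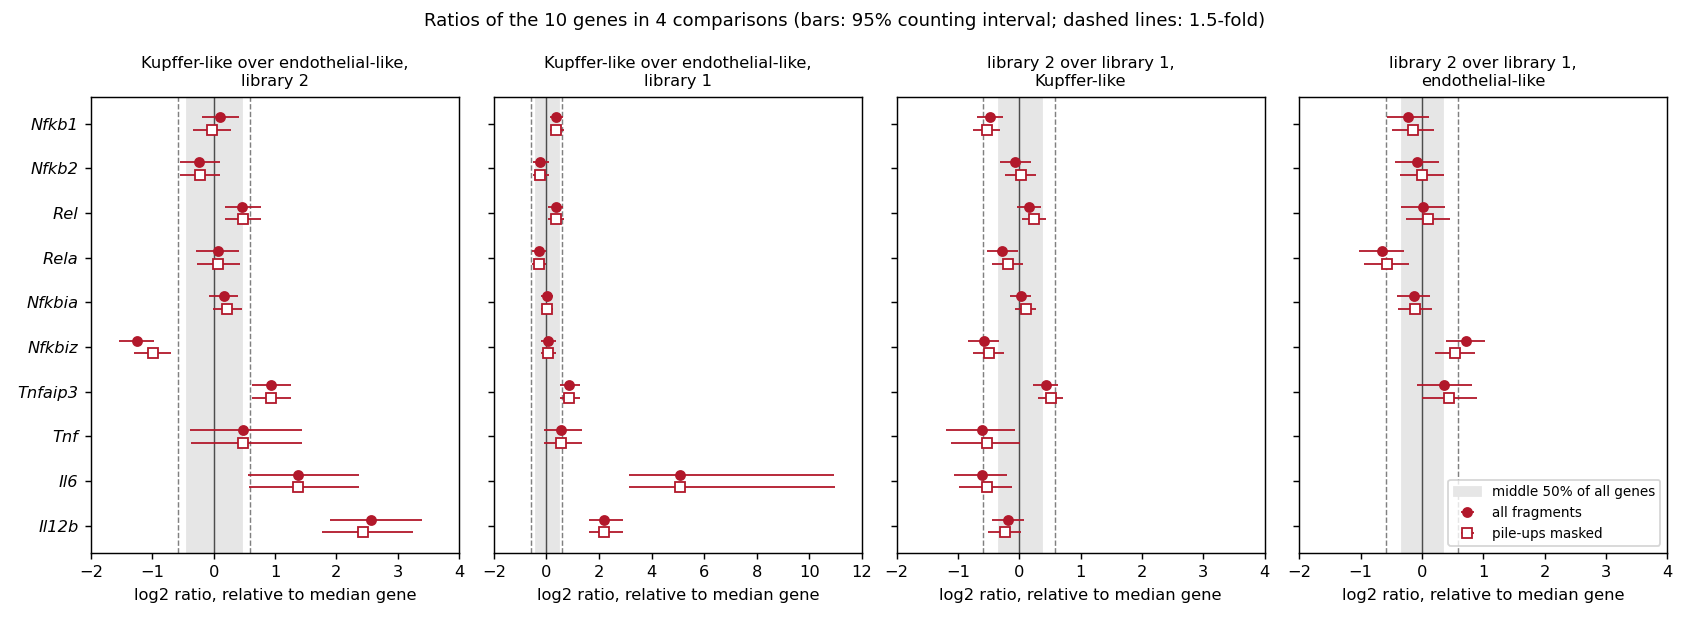
Log2 ratio of each gene relative to the median gene in 4 comparisons, from all fragments (filled) and with pile-ups masked (open), with 95% counting intervals as bars, the middle 50% of all genes in grey and 1.5-fold as dashed lines. Il12b, Il6 and Tnfaip3 lie to the right in both comparisons of Kupffer-like over endothelial-like cells, and no gene passes 1.5-fold between libraries once pile-ups are masked.

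Of the target cytokine genes, Il12b and Il6 were higher in Kupffer-like cells of both libraries and Tnf passed 1.5-fold in neither. Il12b, which encodes the p40 chain shared by interleukin-12 and interleukin-23, had 49.4 and 67.6 CPM in Kupffer-like cells of library 2 and library 1 and 8.30 and 14.4 CPM in endothelial-like cells. The ratio was 2.57 (1.90 to 3.39) in library 2 and 2.20 (1.62 to 2.91) in library 1, or 5.92-fold and 4.60-fold. Il6, which encodes the interleukin that drives the acute-phase response of hepatocytes, had 63 and 178 fragments in Kupffer-like cells and 14 and 1 in endothelial-like cells. These are 16.9 and 31.4 CPM against 6.46 and 0.624 CPM, with a ratio of 1.38 (0.57 to 2.37) in library 2. In library 1 the ratio of 5.07 (3.15 to 10.96) rests on the single fragment in endothelial-like cells. Tnf, which encodes tumour necrosis factor, had the fewest fragments in Kupffer-like cells, 38 and 107 there and 16 and 20 in endothelial-like cells. Its ratios of 0.47 (-0.38 to 1.44) and 0.56 (-0.11 to 1.36) did not pass 1.5-fold, and at this depth their intervals reach from below the median gene to past 1.5-fold.

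For Il12b the class difference also stood in the share of cells, after each cell was thinned to 5000 fragments. An Il12b fragment was found in 17.3% (12.7 to 22.8%) of 231 Kupffer-like cells of library 2 and 26.2% (21.4 to 31.6%) of 301 of library 1. In endothelial-like cells the shares were 3.82% (1.25 to 8.68%) of 131 and 5.88% (2.19 to 12.4%) of 102. Unthinned, they were 38.4% and 61.1% of Kupffer-like cells and 9.46% and 13.4% of endothelial-like cells. Il6 was found in 6.93% and 12.6% of thinned Kupffer-like cells, against 1.53% of endothelial-like cells of library 2 and 0 of 102 cells of library 1, a count that allows up to 3.55%. The Il6 intervals of library 2 overlapped, at 4.01 to 11% and 0.185 to 5.41%. Tnfaip3 was found in 32.5% and 32.2% of thinned Kupffer-like cells and 13.7% and 21.6% of endothelial-like cells, with overlapping intervals in library 1. Tnf was found in 4.33% and 7.31% of thinned Kupffer-like cells and 3.05% and 3.92% of endothelial-like cells, with overlapping intervals in both libraries. For Nfkbia, open in both classes, the thinned shares were 41.6% and 52.2% of Kupffer-like cells and 31.3% and 52.0% of endothelial-like cells. Intervals of shares are exact binomial intervals.

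Tiles of 1 kb showed where along each gene the fragments lay. Of 16 tiles over all 10 genes with enough fragments in library 2, 4 were higher and 1 lower in Kupffer-like cells, against 27.7% and 17.4% of all tiles. In library 1, 14 of 30 were higher and 3 lower, against 43.8% and 15% of all tiles, so the shares of higher tiles were near the background. The tile at the Tnfaip3 start had 28.5 and 21.7 CPM in Kupffer-like cells of library 2 and library 1 and 27.2 and 25 CPM in endothelial-like cells. The tile centred 5.91 kb into the gene had 30.3 and 27.1 CPM in Kupffer-like cells and 8.76 and 8.12 CPM in endothelial-like cells, ratios of 1.79 (1.11 to 2.60) and 1.69 (0.92 to 2.68). Thus the start of Tnfaip3 was about equally open in both classes and the tile inside the gene was not. The next tile, at 6.91 kb, had 43 and 50 fragments in Kupffer-like cells and 4 and 0 in endothelial-like cells. With the endothelial-like count of library 1 set to a floor of 3 fragments, the ratio there was 4.69-fold. The interval of the observed counts began at a log2 ratio of 1.88.

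**Figure D3:**
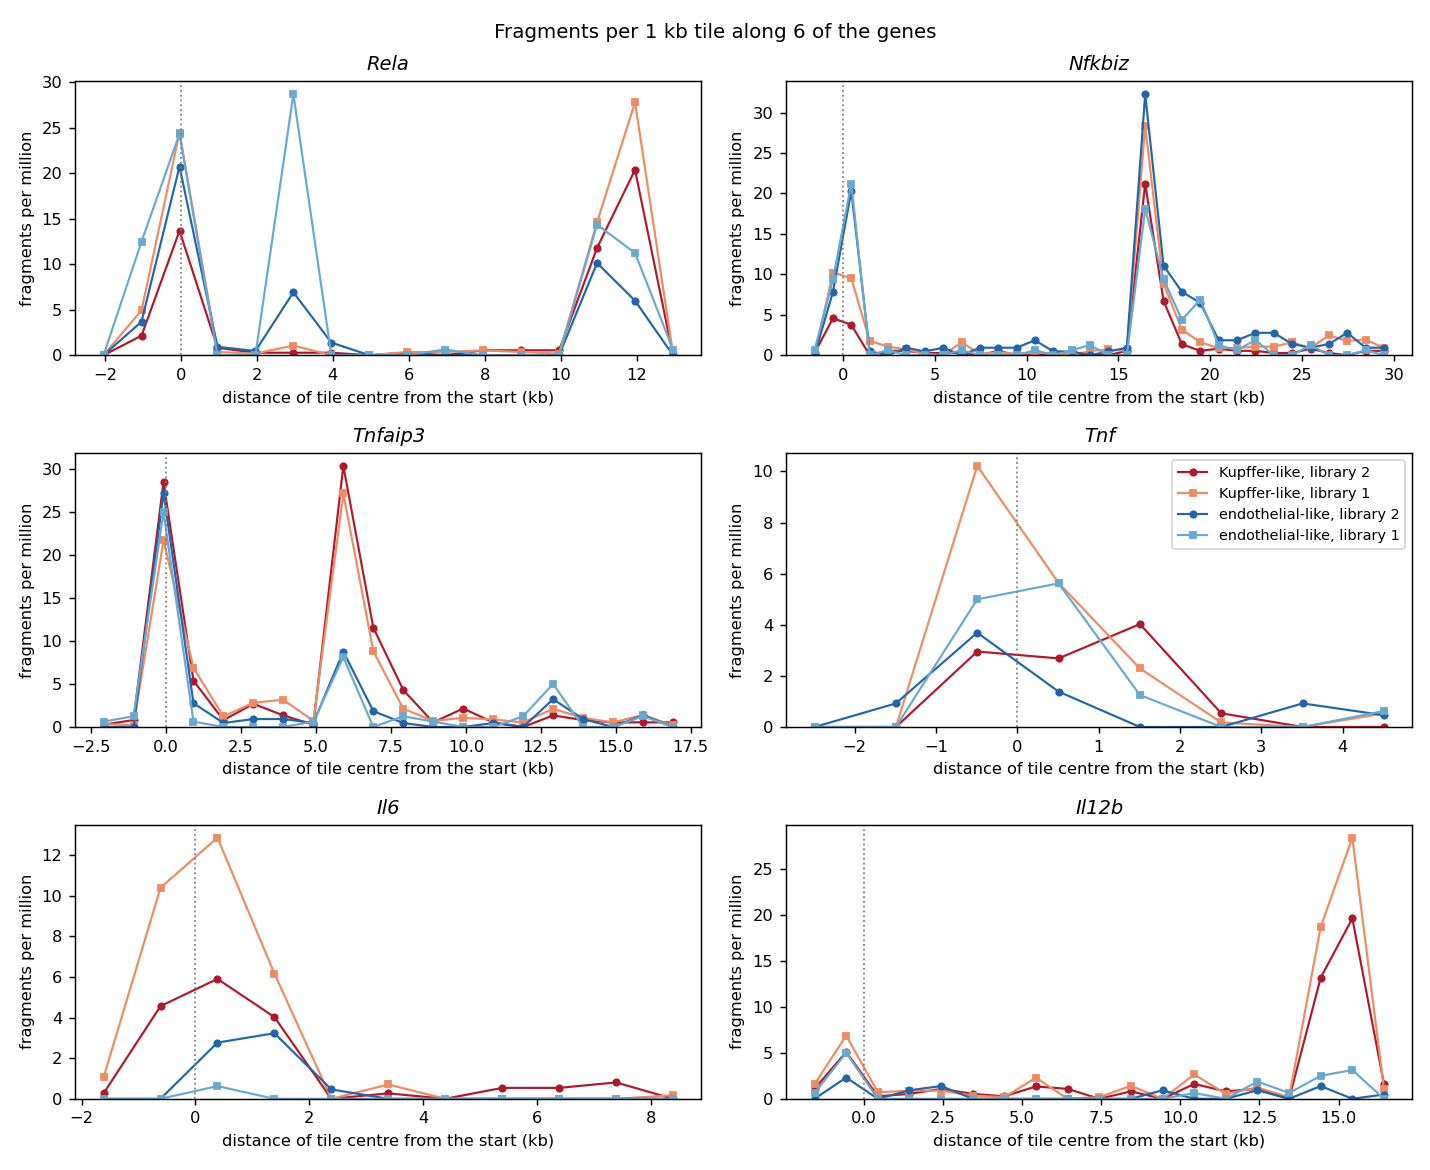
CPM in 1 kb tiles against the distance of the tile centre from the start in kb for 6 genes, in Kupffer-like cells (red and orange) and endothelial-like cells (blue) of library 2 and library 1. Tnfaip3 and Il12b show tiles far from the start that are higher in Kupffer-like cells, Nfkbiz a start tile that is lower there, and Rela a tile near 3 kb with fragments mostly in endothelial-like cells.

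At Il12b most of the difference lay at the far end of the gene. The tile centred 15.4 kb from the start lay just past the annotated gene end. It had 73 and 161 fragments in Kupffer-like cells of library 2 and library 1 and 0 and 5 in endothelial-like cells. With the 0 set to a floor of 3 fragments, the library 2 ratio was 14.4-fold. The interval of the observed counts there began at a log2 ratio of 3.52. In library 1 the log2 ratio was 3.05 (1.93 to 4.82). The tile at 14.4 kb had 49 and 106 fragments in Kupffer-like cells and 3 and 4 in endothelial-like cells. The tile just before the start had 19 and 39 fragments in Kupffer-like cells and 5 and 8 in endothelial-like cells, a smaller gap on few fragments. At Il6 the fullest tiles lay at the start. The tile before the Il6 start had 17 and 59 fragments in Kupffer-like cells and 0 and 0 in endothelial-like cells. With each 0 set to the floor of 3 fragments, its ratios were 3.36-fold and 5.53-fold. In library 1 the interval of the observed counts began at a log2 ratio of 2.12. The tile after the start had 22 and 73 fragments against 6 and 1. Tiles away from the Il6 start had 24 and 46 fragments in Kupffer-like cells and 8 and 0 in endothelial-like cells, too few for a ratio. At the tile at 1.39 kb, with 35 and 0 fragments in library 1, the same floor gave 3.28-fold.

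At Rel, Nfkb1 and Rela single tiles away from the start passed 1.5-fold between the classes. Those of Rel and Nfkb1 held enough fragments for a ratio in library 1 alone. At Rel, the tile before the start had 44.3 and 38.9 CPM in Kupffer-like cells of library 2 and library 1 and 36.0 and 32.5 CPM in endothelial-like cells, while the tile 8.47 kb into the gene had 7 and 51 fragments in Kupffer-like cells and 0 and 1 in endothelial-like cells. That inner Rel tile also differed between the libraries within Kupffer-like cells, with a ratio of -1.90 (-3.37 to -0.84). A Rel tile 1.47 kb into the gene had 36 and 64 fragments in Kupffer-like cells and 5 and 9 in endothelial-like cells. Its ratio between the classes was 0.93 (-0.01 to 2.19) in library 1. At Nfkb1, tiles 63.5 and 83.5 kb from the fuller gene end had ratios of 2.18 (0.92 to 4.25) and 1.34 (0.50 to 2.44) in library 1, and too few fragments for a ratio in library 2. At Rela, the tile 12 kb from the start, past the gene end, had 20.4 and 27.8 CPM in Kupffer-like cells and 6.0 and 11.2 CPM in endothelial-like cells, ratios of 1.75 (0.94 to 2.77) and 1.27 (0.60 to 2.10). A Rela tile 2.96 kb into the gene, chosen after its values were seen, ran the other way, with 1 and 6 fragments in Kupffer-like cells and 15 and 46 in endothelial-like cells. The ratio over the whole Rela window shows neither tile. At Nfkb2 no tile passed 1.5-fold in either library, 91.5% of the Kupffer-like fragments fell into 3 tiles, and the main tile at the start had 38.1 and 40.0 CPM in Kupffer-like cells and 39.2 and 52.5 CPM in endothelial-like cells.

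Nfkbiz was lower in Kupffer-like cells at the gene end with more fragments, which was taken as its start. Its first tile inside the gene had 3.76 and 9.51 CPM in Kupffer-like cells of library 2 and library 1 and 20.3 and 21.2 CPM in endothelial-like cells. The ratios were -2.37 (-3.39 to -1.51) and -1.17 (-1.81 to -0.50), lower in Kupffer-like cells of both libraries. The tile just outside that end had 17 and 58 fragments in Kupffer-like cells and 17 and 15 in endothelial-like cells. Its ratio was 0.09 (-0.72 to 1.05) in library 1, with too few fragments for a ratio in library 2. The tile with most Nfkbiz fragments, 16.5 kb from that end, had 21.2 and 28.4 CPM in Kupffer-like cells and 32.3 and 18.1 CPM in endothelial-like cells, with ratios of opposite sign in the libraries. At Nfkbia the start tile was about equally open in both classes. It had 49.4 and 56.2 CPM in Kupffer-like cells and 47.5 and 52.5 CPM in endothelial-like cells. Other Nfkbia tiles passed 1.5-fold in library 1. There, Kupffer-like cells were lower 1.15 kb into the gene, at -0.72 (-1.19 to -0.22). They were higher at 3.15 kb, where the ratio was 0.87 and its interval held 0 (-0.002 to 1.98). No Nfkbia tile with enough fragments passed 1.5-fold in library 2.

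**Figure D4:**
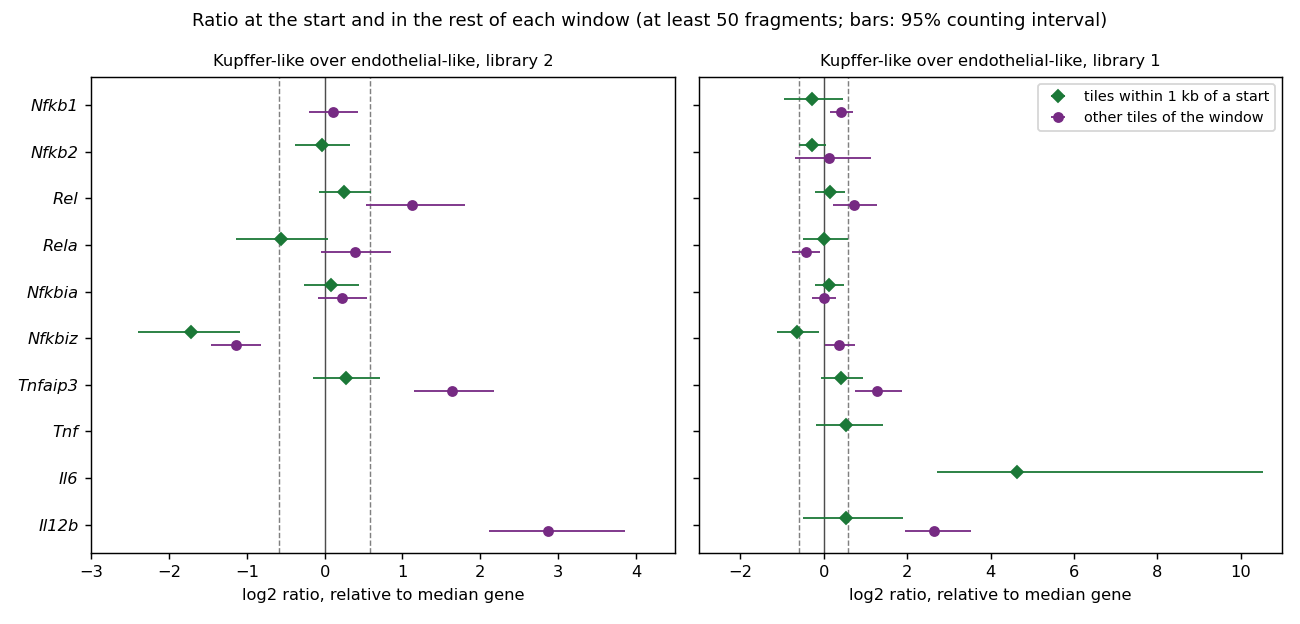
Log2 ratio of Kupffer-like over endothelial-like cells relative to the median gene, in library 2 (left) and library 1 (right), for tiles within 1 kb of an annotated start, or of the fuller gene end for Nfkb1 and Nfkbiz (green diamonds) and the other tiles of the window (purple circles), with 95% counting intervals as bars. Points are missing where a region held under 50 fragments, and Rel, Tnfaip3 and Il12b have the purple point to the right.

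Summed over the window, the tiles away from a start were higher in Kupffer-like cells for Rel, Tnfaip3 and Il12b in both libraries. Away from the start, 3 of 7 genes in library 2 and 3 of 8 in library 1 were higher and 1 and 0 lower, while 31.4% and 34.2% of all genes were higher there and 23.6% and 21.8% lower. At the start, 0 of 6 and 1 of 10 were higher and 1 and 1 lower, against 10.3% and 12.5% of all genes higher and 15.2% and 13.4% lower, and the gene that was higher was Il6 and the lower one Nfkbiz. All genes thus had fewer differences at starts than elsewhere. Tnfaip3 had ratios of 1.63 (1.15 to 2.18) and 1.27 (0.76 to 1.87) away from its starts and 0.27 (-0.15 to 0.72) and 0.41 (-0.06 to 0.95) at them. Rel had 1.12 (0.53 to 1.80) and 0.71 (0.23 to 1.27) away and 0.25 and 0.14 at the start.

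Between the libraries within Kupffer-like cells, 0 of the 10 genes were higher in library 2 and 2 were lower, against 16.3% and 12.4% of all genes. The lower genes were Il6, at -0.61 (-1.06 to -0.20), and Tnf, at -0.60 (-1.19 to -0.07), both barely past 1.5-fold. Tnf had 10.2 CPM in library 2 and 18.8 CPM in library 1, and Il6 had 16.9 CPM and 31.4 CPM. Nfkbiz, at -0.58 (-0.84 to -0.33), lay just inside the threshold, and Nfkb1, at -0.48 (-0.69 to -0.27), closer to the median gene. Tnfaip3 had the highest of these ratios, at 0.43 (0.23 to 0.64), with 93.1 CPM in library 2 and 83.1 CPM in library 1. With pile-ups masked, 0 of the 10 genes passed 1.5-fold in either direction, where 12.8% of all genes were higher and 11.3% lower, and Il6 and Tnf had ratios of -0.53 (-0.98 to -0.12) and -0.52 (-1.11 to 0.01). The summed Kupffer marker level and the share in peaks were also lower in library 2, and their part in these ratios was not tested.

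Within Tnf and Il6, the tiles at the start were lower in library 2. Away from the start Il6 had a ratio of -0.05 (-0.84 to 0.68), an interval that overlaps that of its start tiles. Tnf had 17 and 17 fragments there, too few for a ratio. These counts cannot tell whether either difference was confined to the start. The Tnf tile before the start had 11 fragments in library 2 and 58 in library 1, a ratio of -1.47 (-2.60 to -0.58), while the tile 1.51 kb into the gene had 15 in library 2 and 13 in library 1. The start tiles of Tnf summed to a ratio of -1.20 (-1.98 to -0.53) and those of Il6 to -0.87 (-1.44 to -0.36), and those of Nfkbiz to -0.96 (-1.60 to -0.39). Il12b had -0.21 (-1.07 to 0.57) at the start, on 20 and 43 fragments. That interval holds the start ratios of Il6 and Nfkbiz, so it cannot tell whether Il12b differed from them. Away from the start Il12b had -0.17 (-0.45 to 0.10). Over all genes, 18.1% of starts were lower in library 2 and 5.87% higher. Tnfaip3 ran the other way, with its start tile at 28.5 CPM in library 2 and 21.7 CPM in library 1, a ratio of 0.66 (0.27 to 1.05), and so did the Nfkbia tile 1.15 kb into the gene, at 0.65 (0.25 to 1.05). The start tile of Nfkbia itself had a ratio of 0.08 (-0.19 to 0.35). Over all tiles of the 10 genes, 3 of 32 were higher in library 2 and 8 lower, against 7.78% and 29.4% of all tiles.

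The Kupffer-like cells of library 1 fell mostly into cluster 2, with 221 cells, and cluster 6, with 99 cells and more fragments per cell. The levels of the cytokine genes stood close together in clusters 2 and 6, with Il12b at 76.0 (66.1 to 87.0) and 61.3 (52.4 to 71.2) CPM, Il6 at 32.6 and 30.1 CPM, and Tnf at 20.1 and 18.3 CPM. In cluster 1, which held the Kupffer-like cells of library 2, the CPM of all 3 were lower, at 49.4 (42.5 to 57.1), 16.9 (13 to 21.6) and 10.2 (7.22 to 14), before any adjustment to the median gene. The intervals of Il12b and Tnf in cluster 1 overlapped those in cluster 6, and relative to the median gene Il12b had a ratio of -0.18 (-0.45 to 0.07) between the libraries. Rel, at 88.8 CPM in cluster 1, lay between 106 and 88.5 CPM in clusters 2 and 6 to within its interval of 79.5 to 98.9 CPM. Tnfaip3, at 93.1 CPM in cluster 1, was above 87.2 and 81.4 CPM with overlapping intervals.

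Within endothelial-like cells, 7 of the 10 genes had enough fragments. Nfkbiz was higher in library 2, at 0.71 (0.40 to 1.04), and Rela lower, at -0.66 (-1.03 to -0.29), against 14.9% and 11.5% of all genes. With pile-ups masked neither passed 1.5-fold, at 0.54 (0.21 to 0.87) and -0.57 (-0.95 to -0.21), where 9.93% of all genes were higher and 9.75% lower. Of 11 tiles of the 10 genes with enough fragments, 1 was higher in library 2 and 1 lower, against 7.67% and 18.3% of all tiles. At the start, 0 of 6 genes were higher and 0 lower, against 4.03% and 12.1% of all genes. Most of the Rela difference lay away from the start, at -1.04 (-1.52 to -0.58), with 15 fragments in library 2 and 46 in library 1 at the tile 2.96 kb into the gene, while the start had a ratio of 0.04 (-0.60 to 0.69).

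**Figure D5:**
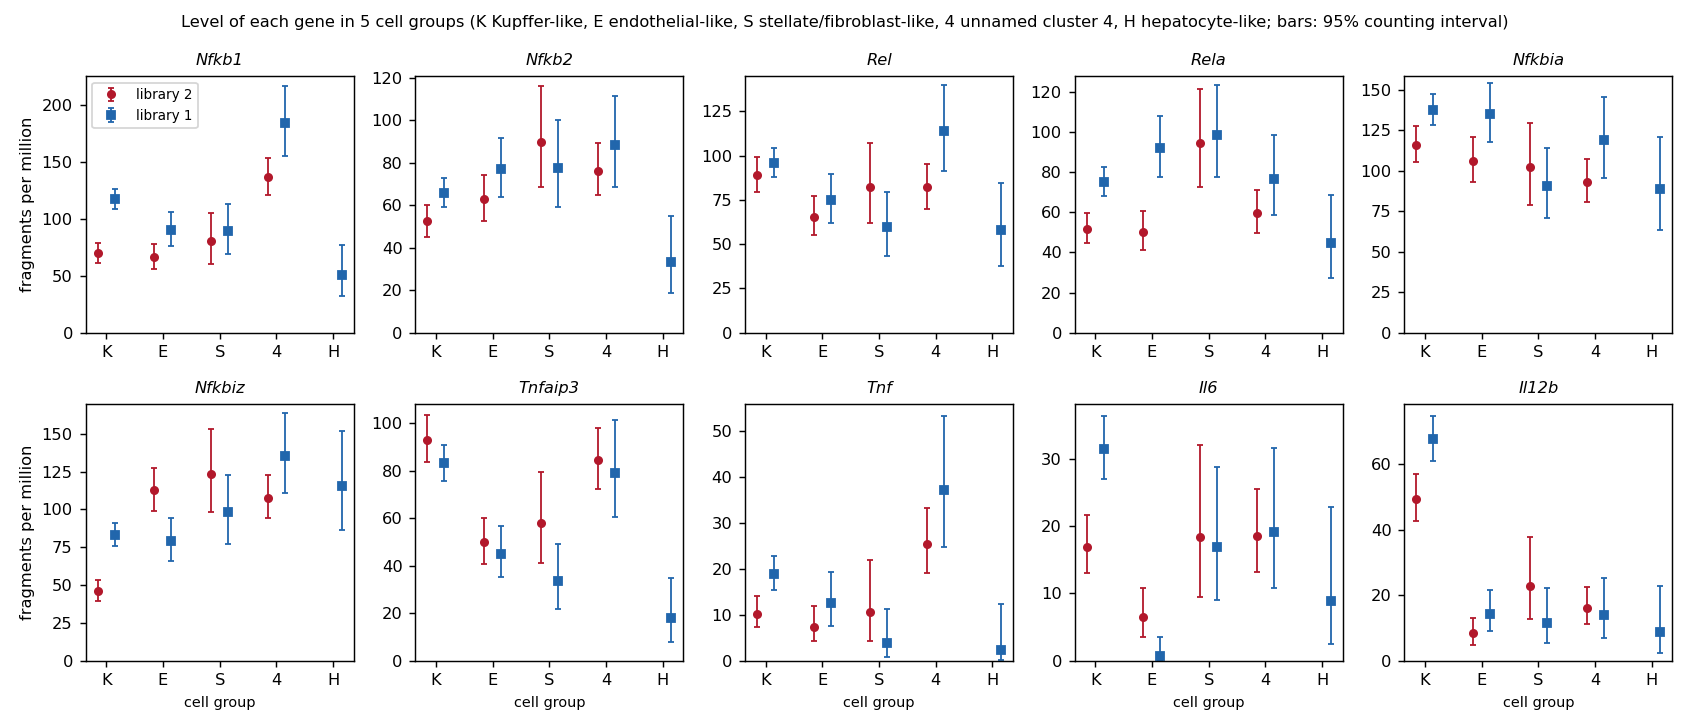
Level of each gene in CPM in 5 cell groups (Kupffer-like, endothelial-like, stellate or fibroblast-like, the unnamed cluster 4 and hepatocyte-like), in library 2 (red circles) and library 1 (blue squares), with 95% counting intervals as bars. Hepatocyte-like cells of library 2 are not drawn since the group held 1 cell, and cluster 4 stands highest for Nfkb1 and Tnf.

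Across the cell groups, Il12b was highest in Kupffer-like cells in both libraries, and its intervals did not overlap those of any other group with more than 1 cell. The next group was the stellate or fibroblast-like one in library 2, with 22.9 (12.8 to 37.7) CPM, and the endothelial-like one in library 1. Tnfaip3 was also highest in Kupffer-like cells, but its interval overlapped that of the unnamed cluster 4, which had 84.4 and 79.2 CPM. Cluster 4 held 91 and 55 cells, and its best marker list was that of dendritic cells in library 2 and of monocytes in library 1. Nfkb1 was highest in this cluster, at 137 (121 to 154) and 184 (155 to 216) CPM, above Kupffer-like cells in both libraries with no overlap of intervals. Tnf was highest there too, at 25.4 (19.0 to 33.3) and 37.0 (24.8 to 53.2) CPM, more than in Kupffer-like cells of the same library. Il6 was highest in Kupffer-like cells of library 1, but in library 2 cluster 4 had 18.5 CPM and stellate or fibroblast-like cells 18.3 CPM, beside 16.9 CPM in Kupffer-like cells, with overlapping intervals. Nfkbia was highest in Kupffer-like cells and overlapped endothelial-like cells in both libraries, and Nfkbiz was highest in stellate or fibroblast-like cells of library 2 and in cluster 4 of library 1, at 123 and 135 CPM. Rela was highest in stellate or fibroblast-like cells, at 94.5 (72.4 to 121) and 98.3 (77.4 to 123) CPM, a level that overlapped that of endothelial-like cells in library 1. For Rel, with the plotted groups ordered by level, each group's interval overlapped that of the next in both libraries. The ends of that order did not overlap in either library. They were Kupffer-like and endothelial-like cells in library 2, and cluster 4 and hepatocyte-like cells in library 1. Hepatocyte-like cells of library 1, with 27 cells, were the lowest plotted group there for all genes but Nfkbiz and Il6. Nfkb1, Nfkb2, Rela and Tnfaip3 had 51.1, 33.3, 44.5 and 17.8 CPM. Rel, Nfkbia, Tnf and Il12b had 57.8, 88.9, 2.22 and 8.89 CPM. Apart from Nfkb2 and Rela, the intervals of all these genes overlapped those of stellate or fibroblast-like cells.

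A list of 56 other genes of the pathway was counted in the same way. In library 2, 11 of 47 with enough fragments were higher in Kupffer-like cells and 8 lower, and in library 1 13 of 52 were higher and 1 lower. Over all genes 20.4% and 20.9% were higher and 19.5% and 17.6% lower, so the shares of higher pathway genes were near the background. Their medians were 0.13 and 0.21, beside 0.31 and 0.36 for the 10 genes. Among 20 other target genes, 5 of 12 and 9 of 16 were higher and 2 and 0 lower. The lower ones of library 2 included Sele, at -1.21 (-1.90 to -0.55). The higher ones included Cd83, a surface protein of activated antigen-presenting cells, at 2.37 (1.97 to 2.82) and 2.86 (2.36 to 3.46). Il1b, which encodes interleukin-1 beta, was at 2.14 and 2.53, and Vcam1, an adhesion molecule, at 2.28 and 2.33. Among 20 receptors, adaptors and kinases, 3 of 19 and 3 of 20 were higher and 4 and 1 lower. The receptors for TNF itself ran in opposite directions, with Tnfrsf1b at 2.22 (1.83 to 2.66) and 2.59 (2.18 to 3.07) and Tnfrsf1a at -1.22 (-1.54 to -0.91) and -0.94 (-1.20 to -0.68). Of 11 other feedback genes, 2 and 1 were higher and 2 and 0 lower. Of the 5 other subunit and IkB genes, Nfkbid alone was higher in library 2, at 1.22 (0.71 to 1.80), and none passed in library 1, where Nfkbid was at 0.50 (0.14 to 0.89).

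Between the libraries within Kupffer-like cells, 0 of 52 of these genes were higher in library 2 and 5 lower, against 16.3% and 12.4% of all genes, with a median of -0.18, beside -0.23 for the 10 genes. The lowest were Lta, which lies beside Tnf and shares part of its window, at -1.23 (-2.01 to -0.56), and Tax1bp1, a partner of A20, at -0.99 (-1.41 to -0.60). Relb, a subunit of the alternative pathway, had the highest ratio, at 0.49 (0.32 to 0.67). Within endothelial-like cells, 4 of 43 were higher and 5 lower, against 14.9% and 11.5% of all genes. The windows of Nfkb2 and Nfkbiz also overlap other genes, Psd and Nxpe3, over stretches that held at most 1.87% and 0.787% of the fragments of any class, while the stretch shared by Tnf and Lta held 12.5% of the Tnf fragments in endothelial-like cells of library 2 and none in endothelial-like cells of library 1 or in Kupffer-like cells.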

How the data were processed

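The table that the authors deposited holds both libraries, with coordinates, a barcode and a raw count of read pairs for every unique fragment. Each unique fragment was counted once. A second deposited table gave, for every barcode, the fragments in peaks, near transcription starts and in blacklisted regions, and the cell calls, made by a rule that was not stated. The submitters' processing notes name Cell Ranger ATAC 1.2.0, Cell Ranger, Seurat, Signac 0.2.4, R 3.6.1 and build GRCm38.p5. Gene coordinates and promoters came from RefSeq tables of GRCm38.p6, a patch release that keeps the coordinates of the main chromosomes. The gene table gives no strand, so starts were taken from the promoter table or, for Nfkb1 and Nfkbiz, from the gene end with more fragments.

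Cells were called barcodes with at least 1000 fragments in peaks, 15% or more in peaks and no more than 5% blacklisted. Fragments in 5 kb bins seen in at least 10 cells were given TF-IDF weights, then reduced to 30 components (scikit-learn 1.9.0), and 29 of them gave 9 clusters with Leiden at resolution 0.5 (leidenalg 0.10.2). Clusters were named from 14 marker lists with 119 genes, scored against the other cells of the same library, a rule chosen after scoring against all cells had left the Kupffer-like cluster of library 2 unnamed. The rule for classes from each cell's own marker fragments, an alternative, and the split into tiles at and away from the start were also set after seeing the data. No marker of its own stood among the 10 leading genes of a Kupffer-like cluster. Classes with at least 100 cells in each library were compared. Cells that scrublet (scanpy 1.11.5) marked as doublets, 4 in library 2 and 3 in library 1, were kept.

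Levels are CPM of all fragments of a class with exact Poisson intervals, and ratios carry exact conditional binomial intervals (scipy 1.17.1), whose point values had 0.5 added to each count. Tiles count fragment midpoints on a 1 kb grid. Pile-ups were 20 kb bins in which 1 cell had 10 or more fragments, and 10 or more times what its cluster and depth give. The ratio step was tested on simulated data. The 10 genes, the lists and the rule for named genes were chosen with earlier results of these data known. The rule named the 10 genes, the 3 highest and 3 lowest pathway genes of each comparison, each gene's 3 fullest tiles and its tiles with the extreme library ratios, and genes whose windows overlap, which were Psd, Nxpe3 and Lta. Other pathway genes and tiles were named after their values were seen.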

Additional observations from a re-analysis of the deposited data

How the results depend on the processing

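There were 15 alternatives. Leaving out the Kupffer-like cluster 6 was chosen after seeing the data, and the rule for classes from each cell's own marker fragments was also set then. No called ratio changed sign under any of the 15. No paired analysis was possible because each genotype had 1 library and no ratio comes from a test. Il12b and Il6 stayed past 1.5-fold higher in Kupffer-like cells in every alternative with enough fragments (Il12b 1.76 to 2.91 in library 2 and 0.73 to 2.54 in library 1). Tnfaip3 stayed past it in 11 of 15 alternatives in library 2 (0.25 to 1.47) and in 14 of 15 in library 1 (0.19 to 1.10), and Nfkbiz stayed lower in library 2 in all 15. With 1 kb on each side of the start, 0 genes were higher in Kupffer-like cells of library 2, and with gene bodies alone 2 were lower in library 2 and 1 in library 1. With 20 kb bins the median of the 10 genes was 0.0203 in library 2.

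Between libraries the counts moved more. Within Kupffer-like cells, 5 genes were lower with at least 3000 fragments in peaks, 4 with 20 kb bins and 4 without scrublet doublets, with medians of -0.57, -0.56 and -0.54. In these settings 36, 39 and 40 cells of the unnamed cluster 8, with a median of 23.8% in peaks, entered the Kupffer-like class of library 2. None was lower with gene bodies alone (0) or with pile-ups masked (0). Within endothelial-like cells, the genes higher and lower numbered 0 and 0 with at least 50% in peaks, which left 91 cells in library 2, 0 and 0 at the start, 0 and 0 with pile-ups masked, 2 and 3 with no minimum, and 2 and 0 in cells thinned to 5000 fragments. The lower genes there numbered 0 with at least 3000 fragments in peaks and 3 when insertions were counted. No cause of these shifts was tested, the entry of cluster 8 cells included. The depth leaves Tnf and the cytokine genes in endothelial-like cells with the widest intervals.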

Other observations

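Cluster 8 belonged to no named class and held 40 cells of library 2 and 3 of library 1, with a median of 53809 fragments per cell. In its library 2 cells Nfkb2, Rel, Rela, Nfkbia and Tnfaip3 had 26.5, 35.9, 25.7, 51.3 and 31.9 CPM, below Kupffer-like and endothelial-like cells of the same library. The order depends on the scaling: per 1000000 fragments near transcription starts, Tnfaip3 had 166.8 in these cells and 148.0 in endothelial-like cells, and Nfkb1 had 281 in these cells, 218 in Kupffer-like cells and 197 in endothelial-like cells. Il12b had 16.3 (12.3 to 21.1) CPM there, and Il6 had 7.13 (4.62 to 10.5) CPM. The median share of fragments in peaks of these cells was 23.8%, and its part in their levels was not tested.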
